A study of Mus musculus with 6 samples.

Results

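The genes described here are 10 muscle genes of the fast skeletal fibre type, looked up by symbol in a table of 30914 genes. They are Mylpf, Tnnt3, Tnni2, Tnnc2, Myh1, Myh2, Myh4, Actn3, Pvalb and Ckm, and 9 of them were found, each as 1 row. Myh4 was not analysed here. The members were chosen by their FPKM in these same libraries, so the levels of the members and their difference between the groups are given as a description, without a test.

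The libraries came from heart RNA of 6 wild-type C57BL/6J mice, all male and 8 weeks old when they entered the study. All of them received angiotensin II (Ang II), a pressor peptide used to induce cardiac hypertrophy, at 1 μg/kg/min for 4 weeks from osmotic pumps. The labels name no further agent for the 3 mice of the Ang II group. To the 3 mice of the Ang II + Tec group tectochrysin (Tec), a plant flavonoid, was also given, at 5 mg/kg over the final 2 weeks. Values of a group are given in the order of replicates 1, 2 and 3, and the groups are called without Tec and with Tec, or untreated and treated, all hearts having had Ang II. Hearts without Ang II were not analysed here, and the sources used here do not say whether the atria were kept. Values are FPKM, fragments scaled to transcript length and to the mapped fragments of the library, so that genes of different length can be set side by side. The deposited FPKM hold no totals of reads, so the depth of the libraries is unknown, and errors are the SD over mice. In bulk tissue, fewer cells of a type and less RNA per cell cannot be told apart.

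Striated muscles build the same contractile machine from different gene copies. Fast skeletal fibres use the heavy chains Myh1, Myh2 and Myh4, the regulatory light chain Mylpf and the fast troponins Tnnt3, Tnni2 and Tnnc2, which hold back contraction until calcium binds. Actn3 crosslinks actin at the Z-disc of fast fibres, Pvalb buffers calcium in their cytosol, and Ckm is the muscle creatine kinase that regenerates ATP in skeletal and cardiac muscle alike. The ventricle uses Myh6 and Myh7, Myl2, Tnnt2, Tnni3, Tnnc1 and Actn2 in the same places.

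The tissue showed the transcripts of ventricular muscle in every library. The 6 ventricular markers (Myl2, Myh6, Myl3, Tnni3, Actc1 and Mybpc3) summed to between 8579 and 10640 FPKM. Atrial transcripts differed between hearts of both groups. The atrial light chain Myl7 was at 419 and 332 FPKM in Ang II replicates 1 and 2 and at 1039.8 FPKM in Ang II + Tec replicate 2, and at 0, 0 and 1.58 FPKM in the other libraries. Of the 12 skeletal fibre markers 11 were found, and they summed to 23.9 to 221 FPKM in the Ang II group and to 37.7 to 71.9 FPKM in the Ang II + Tec group. Most of the highest sum was Myl1 at 169 FPKM. The markers Myh1, Myh2 and Ryr1 reached at most 0.02, 0.01 and 0.05 FPKM in any library. Mylpf, Atp2a1, Casq1 and Mybpc2 of the same list reached 4.55, 7.51, 13.8 and 6.70 FPKM. These and Ryr1 were higher in every treated heart than in any untreated one. Myl1, Tnnt3, Actn3, Cacna1s, Myh1 and Myh2 overlapped between the groups. The transcripts of the mitochondrial genome took 41.3%, 40.1% and 48.9% of the summed FPKM without Tec and 51.3%, 49.6% and 52.5% with Tec, so this share did not overlap between the groups. With libraries scaled by the sum outside the mitochondrial genome, the log2 differences of Mylpf and Ckm given further on were 1.82 and 0.65, and the part of the share in them was not otherwise tested.

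The stretches before the start sites of 4 genes are shown first, because Mylpf and Atp2a1, a fast-fibre gene described further on, differed between the groups while Myh1 and Myh2 were near 0 in all hearts. RefSeq start sites on GRCm38.p6 were given for 7 of the 10 members (Mylpf, Tnnc2, Myh1, Myh2, Myh4, Pvalb and Ckm). The search covered the 250 bases before each start on both strands, and a stretch is printed only up to the first annotated exon. Capitals mark CAGCTG, the form of the E-box that myogenic factors bind, or a match to the MEF2 consensus.
Mylpf (chr7:127211358-127211607, plus strand): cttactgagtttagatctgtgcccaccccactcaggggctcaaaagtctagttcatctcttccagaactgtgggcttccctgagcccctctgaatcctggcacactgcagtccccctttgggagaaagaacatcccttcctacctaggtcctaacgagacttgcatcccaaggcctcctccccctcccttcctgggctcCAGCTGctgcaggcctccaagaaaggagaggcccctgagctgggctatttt
Atp2a1 (chr7:126463109-126463323, minus strand): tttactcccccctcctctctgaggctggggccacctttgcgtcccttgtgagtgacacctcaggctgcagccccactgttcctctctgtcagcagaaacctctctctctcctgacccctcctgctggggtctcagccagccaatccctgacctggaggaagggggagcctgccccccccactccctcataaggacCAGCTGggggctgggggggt
Myh1 (chr11:67199852-67200051, plus strand): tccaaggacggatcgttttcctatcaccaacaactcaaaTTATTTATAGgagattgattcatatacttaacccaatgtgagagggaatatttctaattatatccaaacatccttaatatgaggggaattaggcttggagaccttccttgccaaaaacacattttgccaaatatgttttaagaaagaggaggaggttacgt
Myh2 (chr11:67170777-67171026, plus strand): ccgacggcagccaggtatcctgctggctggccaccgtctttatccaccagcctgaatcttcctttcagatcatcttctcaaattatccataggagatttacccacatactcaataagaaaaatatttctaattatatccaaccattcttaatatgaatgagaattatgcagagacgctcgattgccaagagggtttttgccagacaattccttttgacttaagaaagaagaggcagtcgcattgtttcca
The first base of CAGCTG lay 51 bases before the start of Mylpf and 55 bases before that of Atp2a1. This hexamer occurred in 13% of 32851 stretches of the same length over all genes, and the wider E-box CANNTG, which includes it, in 66.2%. Myh1 held a MEF2 match, found in 2.92% of all stretches, that began 211 bases before its start. Myh1 also held TATAAA at 32 bases and on the other strand at 208 bases, the latter within the MEF2 match, and CATTCC, the binding letters of TEAD factors, at 16 bases on the other strand. The sites at 32 and 16 bases lay past the printed stretch, in an annotated exon of Myh1. TATAAA occurred in 12.4% and CATTCC in 12.6% of all stretches. Myh2 held none of these 5 motifs in its 250 bases. Of the other members, Ckm held CAGCTG at 249 bases, Pvalb a MEF2 match at 180 bases before the first of its start sites, and Tnnc2 E-boxes of other letters at 183 and 88 bases. The annotated spans of Mylpf, Ckm and Tnnc2 begin before the start sites used here, so the sites given for these genes lay inside them. Myh4 held CAGCTG at 67 bases, a MEF2 match at 182 bases, TATAAA at 213, 179 and 31 bases and CATTCC at 231 bases, so CAGCTG was found before a heavy chain gene too. Casq1, another fast-fibre gene described further on, held CAGCTG at 195 bases. A match of letters is a description of the sequence and not a bound site.

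The members spanned a wide range of levels, from 697 FPKM to 0. Ckm was the highest member in all 6 libraries. Tnnt3, Tnni2, Mylpf and Pvalb lay between 0.22 and 42.4 FPKM, and these 4 and Ckm were the 5 members with at least 0.5 FPKM in at least 3 libraries, the limit for testing. Tnnc2, Actn3, Myh1 and Myh2 stayed under 0.5 FPKM in every library. In the Ang II group the order by mean was Ckm, Tnnt3, Tnni2, Pvalb, Mylpf, Actn3, Tnnc2, Myh1 and Myh2. In the Ang II + Tec group it was Ckm, Tnni2, Mylpf, Tnnt3, Pvalb, Tnnc2, Actn3, Myh1 and Myh2, so Mylpf stood above Tnnt3 there. Among the untreated hearts Tnnt3 and Tnni2 overlapped, as did Pvalb and Mylpf. Mylpf and Tnni2 overlapped among the treated hearts, as did Tnnt3 and Pvalb, and the places from Actn3 and Tnnc2 downwards overlapped in both groups.

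**Figure D1:**
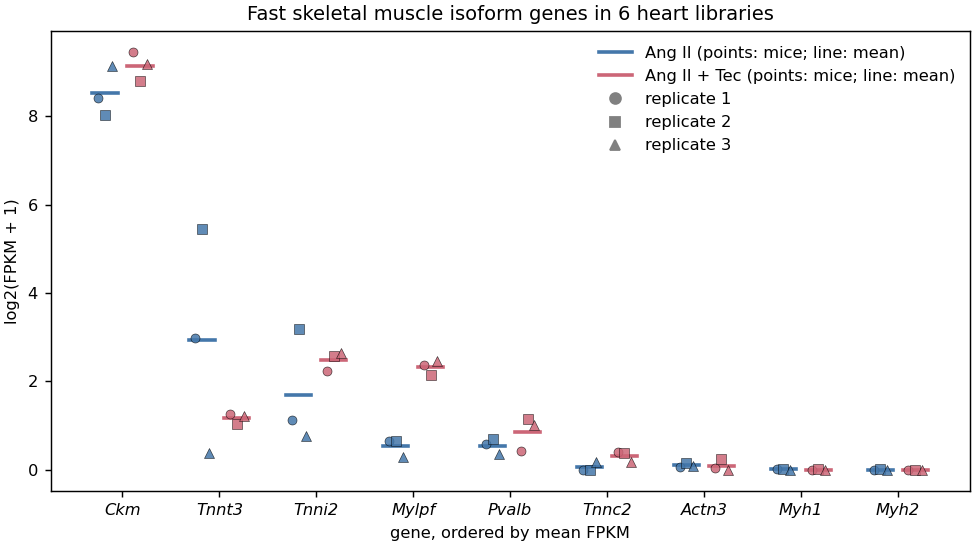
Level of each member as log2(FPKM + 1), in order of the mean FPKM over all 6 libraries. Each point is 1 mouse (circle, square and triangle for replicates 1, 2 and 3), blue for Ang II and red for Ang II + Tec, and lines are group means. The red points of Mylpf all lie above the blue ones, whereas Tnnt3 is widest among the blue points (0.30 to 42.4 FPKM), and Myh1 and Myh2 lie at the bottom in both groups.

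Mylpf, the regulatory light chain of fast myosin, was the only member whose groups did not overlap. It was at 0.58, 0.56 and 0.22 FPKM without Tec and at 4.14, 3.44 and 4.55 FPKM with Tec. Every treated heart was thus above every untreated one, and the lowest treated value stood well clear of the highest untreated one. The means were 0.453 ± 0.202 FPKM and 4.04 ± 0.561 FPKM (SD, n = 3 each), a ratio of 8.92. On the log2(FPKM + 1) scale, which understates the change of genes this low, the difference was 1.80, and it lay between 1.68 and 1.89 when any 1 library was left out. Among the hearts with Myl7 of at least 100 FPKM, 2 untreated and 1 treated, it was 1.50. Among those under 100 FPKM, 1 untreated and 2 treated, it was 2.13. With 1 heart on a side, these values are a description chosen after the data were seen. Mylpf (ENSMUSG00000030672) lies on chromosome 7 from 127208890 to 127214288, and its longest transcript in GENCODE M21 has 766 bases in 7 exons.

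The fit across all genes called 1 of the 5 members that passed the limit, Mylpf, where 0.160% of the 13089 tested genes were called (limma, Benjamini-Hochberg adjusted p under 0.05 and a log2 difference of at least 1). Groups without overlap were found in 1 of these 5 members and in 21.8% of all tested genes. Nothing is read from either count, because the members were listed with this contrast known.

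The genes next to Mylpf had other patterns. Tbc1d10b, 422 bases before it, was at 5.17, 4.69 and 3.70 FPKM without Tec and 2.99, 4.09 and 3.14 FPKM with Tec. Septin1, 159 bases after it, lay between 0.38 and 0.66 FPKM in all libraries. Neither had the step between groups that Mylpf showed, and no gene of the table overlapped Mylpf.

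Tnnt3, the tropomyosin-binding subunit of fast troponin, varied most among the untreated hearts. It was at 6.91, 42.4 and 0.30 FPKM without Tec and at 1.41, 1.04 and 1.31 FPKM with Tec. The treated hearts lay close together and between the untreated extremes. The means were 16.5 ± 22.6 FPKM and 1.25 ± 0.191 FPKM (SD, n = 3 each), so the untreated SD exceeded its mean. The log2 difference of -1.77 moved with single hearts, and was -0.51 when Ang II replicate 2 was left out and -3.04 when Ang II replicate 3 was left out. It was -3.18 among the hearts with Myl7 of at least 100 FPKM, where 1 heart was treated, and 0.86 among those under it, where the only untreated heart was the one at 0.30 FPKM. At 42.4 FPKM in Ang II replicate 2, Tnnt3 came to 7.54% of the cardiac Tnnt2 of that library.

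Tnni2, the inhibitory subunit of fast troponin, is the neighbour of Tnnt3, 54.4 kb before it on the same strand of chromosome 7 (Tnni2, ENSMUSG00000031097, from 142441808 to 142444410, and Tnnt3, ENSMUSG00000061723, from 142498836 to 142516008). Tnni2 was at 1.20, 8.05 and 0.71 FPKM without Tec and at 3.68, 4.94 and 5.21 FPKM with Tec. Its highest value came from the same heart as that of Tnnt3, and its other untreated values were below every treated one. The means of 3.32 ± 4.10 FPKM and 4.61 ± 0.817 FPKM (SD, n = 3 each) differed by less than the untreated spread, with a log2 difference of 0.78 that became 1.52 when Ang II replicate 2 was left out and 0.32 when Ang II replicate 3 was left out. In the untreated hearts Tnnt3 was above Tnni2 in 2 of 3 libraries, and in the treated hearts Tnni2 was above Tnnt3 in every library.

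Between and around this pair of troponin genes, patterns differed from gene to gene. Lsp1, which lies between them, was at 13.15, 15.8 and 7.11 FPKM without Tec. With Tec it was at 5.69, 9.24 and 6.42 FPKM, and like Tnnt3 it was highest in Ang II replicate 2. Prr33 runs against Tnnt3 and overlaps it over 7936 bases, and it lay between 2.70 and 4.30 FPKM in all libraries, so it did not follow Tnnt3. Whether the libraries kept the strand is not given in the sources used here, and reads from the shared stretch cannot then be told apart. H19, an imprinted noncoding RNA 59521 bases beyond Tnnt3 and named after its values were seen, was at 13.7, 25.9 and 10.4 FPKM without Tec and at 7.28, 6.33 and 8.00 FPKM with Tec. Its highest value too came from Ang II replicate 2, and over the 6 libraries it correlated with Tnnt3 by 0.90 (Pearson r on the log2 scale). Smooth muscle markers were also highest in that heart, with Myh11, Acta2, Tagln, Cnn1 and Smtn summing to 336 FPKM, against 112 to 154 FPKM in the other Ang II replicates and 66.0 to 258 FPKM in the Ang II + Tec group. Their part in the levels of Tnnt3 and Tnni2 was not tested.

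Tnnc2, the calcium-binding subunit of fast troponin, was near 0. It was listed at 0, 0 and 0.13 FPKM without Tec and at 0.33, 0.30 and 0.13 FPKM with Tec, and the groups met at their ends. Ube2c, a gene of the cell cycle, runs against it over 1662 bases and was at 1.05, 1.93 and 0.51 FPKM without Tec and at 0.23, 0.36 and 0.32 FPKM with Tec. Ube2c was higher in the untreated hearts, the reverse of Tnnc2. The 3 fast troponin genes therefore stood at unequal levels in every library, and the calcium-binding subunit was the lowest of them.

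Of the fast heavy chains Myh1 and Myh2 were at or near 0 in all hearts, and the level of Myh4 was not analysed here. Myh1 was listed at 0.02, 0.01 and 0 FPKM without Tec and at 0, 0.01 and 0 FPKM with Tec. Myh2 was at 0.01 FPKM in Ang II replicate 2 and at 0 in the other 5 libraries. With FPKM rounded to 2 decimals these values are at the edge of what the table can show, and no difference between the groups was detectable. Myh1 and Myh2 lie 2535 bases apart on chromosome 11 (Myh2 from 67171027 to 67197517 and Myh1 from 67200052 to 67224575), and reads of such similar copies can be split between them. The developmental heavy chains Myh3 and Myh8 and the extraocular chain Myh13 next to them reached at most 0.02 FPKM. In their list of 5 developmental and specialised myosins, 4 were found and 1 could be tested, the light chain Myl4 of the atrium, which was not called.

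Actn3, the fast α-actinin, and Pvalb, the calcium buffer, were low. Actn3 was at 0.05, 0.11 and 0.06 FPKM without Tec and at 0.03, 0.19 and 0 FPKM with Tec, with the same mean of 0.0733 FPKM in both groups. Pvalb was at 0.50, 0.61 and 0.28 FPKM without Tec and at 0.35, 1.21 and 1.03 FPKM with Tec. Both higher Pvalb values came from treated hearts, but the first treated heart fell among the untreated ones. The Pvalb means were 0.463 ± 0.168 FPKM and 0.863 ± 0.454 FPKM (SD, n = 3 each), a log2 difference of 0.32, which was 0.54 when Ang II + Tec replicate 1 was left out and 0.18 when replicate 2 of that group was.

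Ckm, which heart muscle shares with skeletal muscle, was abundant everywhere. It was at 339.9, 259 and 559 FPKM without Tec and at 697, 443 and 577 FPKM with Tec. The third untreated heart lay within the treated range. The means were 386 ± 155 FPKM and 572 ± 127 FPKM (SD, n = 3 each), a ratio of 1.48 and a log2 difference of 0.62. The groups no longer overlapped when Ang II replicate 3 was left out, with a difference of 0.92, or when Ang II + Tec replicate 2 was, with 0.79. Its mitochondrial relative Ckmt2 was at 584 to 828 FPKM without Tec and at 616 to 632 FPKM with Tec. Ckm came to 50.3%, 44.3% and 67.6% of Ckmt2 in the Ang II replicates and to 110%, 72.0% and 91.7% in the Ang II + Tec replicates. The share of Ckm was higher in every treated heart. The 6 atrial markers (Myl7, Sln, Nppa, Bmp10, Dkk3 and Myl4) summed to 6259, 10323 and 258 FPKM without Tec. With Tec they summed to 908, 5121 and 134 FPKM. Within each group the sum was highest in the heart where Ckm was lowest. It includes Nppa (Anp), whose mRNA the paper measured as a marker of hypertrophy, so it does not measure atrial tissue alone. In Ang II + Tec replicate 1, at a sum of 908 FPKM, Myl7 and Sln were at 0 and Myl4 at 0.29 FPKM. The part of the atrial markers in the Ckm level was not tested.

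**Figure D2:**
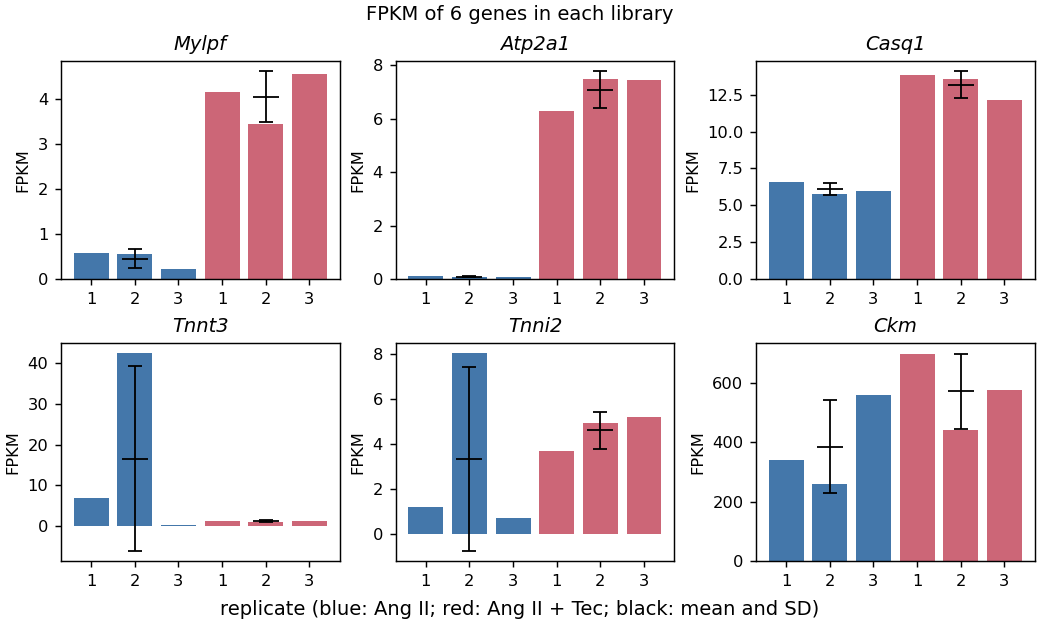
FPKM in each library of Mylpf, Atp2a1, Casq1, Tnnt3, Tnni2 and Ckm, with blue bars for the 3 Ang II mice and red bars for the 3 Ang II + Tec mice, and the mean and SD of each group in black over its middle bar. The upper row shows a step between the groups in each library, the lower row shows the single high heart (Ang II replicate 2) of Tnnt3 and Tnni2 and the overlap of Ckm.

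Set against the cardiac gene that does the same work, the fast isoforms were minor components. Mylpf came to 0.0349%, 0.0456% and 0.0111% of Myl2 in the Ang II replicates, against 0.196%, 0.225% and 0.22% with Tec. Every treated heart was above every untreated one on this within-library scale as well, with Myl2 present at 1227 to 2115 FPKM beside it. Tnni2 ranged from 0.0554% to 0.926% of Tnni3, and Tnnc2 reached at most 0.0272% of Tnnc1. Actn3 reached at most 0.0822% of Actn2, and Myh1 and Myh2 at most 0.00206% and 0.00147% of Myh6. The 8 members other than Ckm summed to 9.26, 51.8 and 1.70 FPKM without Tec and to 9.94, 11.1 and 12.2 FPKM with Tec, against 5687 to 7440 FPKM for the 8 cardiac genes. The 2 sets are not fully matched, since the cardiac sum includes Ckmt2, the mitochondrial relative of Ckm, and Pvalb has no counterpart in it.

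**Figure D3:**
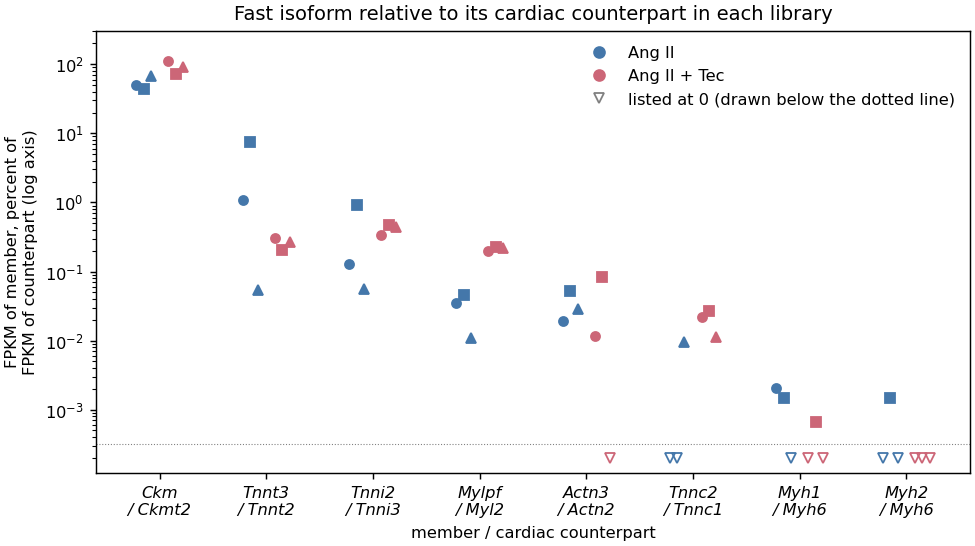
FPKM of each fast isoform as a percent of the FPKM of its cardiac counterpart in the same library, on a log axis, for Ang II (blue) and Ang II + Tec (red), with 1 symbol per mouse. Open triangles below the dotted line are libraries listed at 0. Mylpf lies at or under 0.0456% of Myl2 without Tec and at or over 0.196% with Tec, and the highest share other than that of Ckm is the 7.54% of Tnnt3 in Ang II replicate 2.

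The cardiac counterparts themselves showed no called difference. Of the 8 genes, 0 were called (limma, adjusted p), where 0.160% of all tested genes were, so nothing is read from 0 calls among so few. Of the 8 genes 4 were higher and 4 lower with Tec, and 1 (Myh6) had an unadjusted p under 0.05 (18.6% of all tested genes did). Their median log2 difference was -0.061, beside -0.17 over all tested genes. Tnnt2 was at 640, 562 and 557 FPKM without Tec and at 456, 505 and 494 FPKM with Tec. Its groups did not overlap, but it did not pass the adjusted test. Tnnc1 lay between 1379 and 1691 FPKM without Tec and between 1102 and 1525 FPKM with Tec. The largest differences were those of Myh6 and Myh7, at 0.51 and -0.59 on the log2 scale, and both overlapped between the groups. Myh6 had means of 934 FPKM without Tec and 1304 FPKM with Tec, and Myh7 of 96.9 and 58.4 FPKM.

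Among 19 other genes typical of fast fibres, 1 of 14 tested rose and 0 fell, where 0.160% of all tested genes were called in either direction. Nothing is read from this count, because the list was chosen with earlier results of these data known. The called gene was Atp2a1, the fast calcium pump of the sarcoplasmic reticulum. Atp2a1 was at 0.10, 0.07 and 0.07 FPKM without Tec and at 6.30, 7.51 and 7.46 FPKM with Tec. All treated hearts were far above all untreated ones, with a log2 difference of 2.90 (standard error 0.11, limma adjusted p = 0.000251). Since it reached 0.5 FPKM in 3 libraries alone, all of them treated, Atp2a1 could be tested only because it was high there, and it dropped out of the test when a treated heart was left out. With no limit on low values the adjusted p was 0.00355. The gene lies 746 kb before Mylpf on chromosome 7, and Rabep2 runs against it over 44 bases at between 1.17 and 1.55 FPKM.

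Casq1, the fast calsequestrin that stores calcium in the reticulum and was named after its values were seen, also had a step. It was at 6.57, 5.79 and 5.97 FPKM without Tec and at 13.8, 13.6 and 12.2 FPKM with Tec. No values overlapped, and the log2 difference of 0.997 (standard error 0.11, limma adjusted p = 0.0326) fell just short of the limit of 1. It passed that limit after rescaling by the median of ratios, at 1.21, and its adjusted p ranged from 0.00299 to 0.318 when 1 library was left out or a setting changed.

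The rest of the fast list was less uniform. Over the whole list the median log2 difference was 0.33, beside -0.17 over all tested genes. Of the 14 tested genes 12 were higher with Tec, beside 2618 of all 13089 tested genes. In 5 of the 14 the groups did not overlap, beside 21.8% of all tested genes. As the list was chosen with earlier results known, nothing is read from these counts. The most abundant members, the muscle enolase Eno3, the phosphoglycerate mutase Pgam2 and the phosphofructokinase Pfkm, serve glycolysis in heart as well, and lay at 370 to 502, 285 to 396 and 145 to 193 FPKM over all libraries. Mybpc2, the fast myosin-binding protein C, was at 2.95, 2.86 and 2.48 FPKM without Tec and at 6.70, 6.51 and 3.80 FPKM with Tec. It did not pass the adjusted test although its groups were apart. Myl1, the light chain that partners Mylpf in fast myosin, went another way: it was at 70.1, 169 and 14.1 FPKM without Tec and at 7.12, 39.04 and 7.47 FPKM with Tec. Its highest values came from the 3 hearts with Myl7 of at least 100 FPKM, and the part of atrial tissue in them was not tested.

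**Figure D4:**
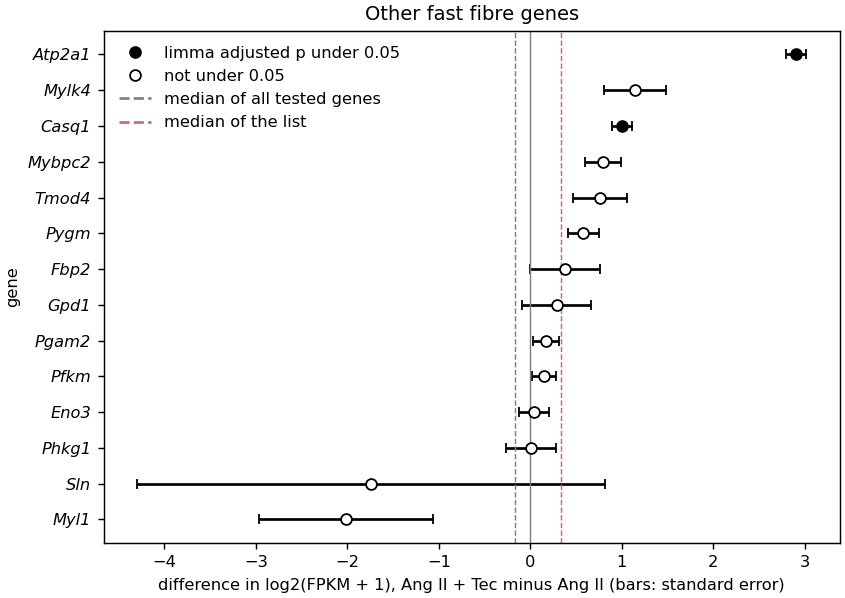
Difference in log2(FPKM + 1) between the Ang II + Tec and Ang II groups for the 14 tested genes of the other fast fibre list, with standard errors from limma (n = 3 mice a group). Filled points (Atp2a1 and Casq1) have an adjusted p under 0.05, and dashed lines are the median of all tested genes at -0.17 and of the list at 0.33.

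Genes that skeletal muscle needs regardless of fibre type showed no called change. Only 0.160% of all tested genes were called, so nothing is read from 0 calls in lists this short. In the list for excitation-contraction coupling 0 of 6 tested genes were called (limma) and 0 had an unadjusted p under 0.05. Ryr1, the calcium release channel of skeletal muscle, was too low to be tested. It was at 0.01 FPKM in each Ang II replicate and at 0.04, 0.05 and 0.05 FPKM with Tec, without overlap. Its partner Cacna1s lay between 0.29 and 0.91 FPKM in all libraries. In the list of shared structural genes 0 of 12 were called (3 with an unadjusted p under 0.05, beside 18.6% of all tested genes). Acta1, skeletal α-actin, which stressed heart muscle also makes, was at 196, 265 and 137 FPKM without Tec and at 627, 195 and 89.2 FPKM with Tec. In the neuromuscular junction list 0 of 5 were called, with 0 at an unadjusted p under 0.05.

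No slow isoform was called, and the regulators of myogenesis were near the floor of the table. Of 6 tested slow genes 0 were called, 3 had an unadjusted p under 0.05 and 3 had groups without overlap. Over all tested genes these shares were 0.160%, 18.6% and 21.8%. The median log2 difference of the slow genes was 0.061. Myh7b, a slow myosin heavy chain named after its values were seen, stood at 3.66, 3.15 and 8.07 FPKM without Tec and at 10.4, 12.3 and 9.45 FPKM with Tec, apart but not past the adjusted test. The slow troponins Tnnt1 and Tnni1 lay between 3.41 and 8.84 FPKM and between 0 and 0.46 FPKM. Of the 12 myogenic regulators 8 were found and 0 could be tested. Myod1, which commits cells to skeletal muscle, was at 0 without Tec and at 0.03, 0.05 and 0.03 FPKM with it, and Myog was listed at 0 without Tec and at 0.06, 0.07 and 0 FPKM with it. The 3 satellite cell markers found summed to at most 0.18 FPKM.

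The genes whose pattern over the 6 libraries was most like that of the summed members other than Ckm were Evi2b, H2-Ab1, Gm14322, H2-Eb1 and Trim30d. They were the first 5 of 1739 tested genes that ranged over at least 1 on the log2 scale (Pearson r from 0.934 to 0.958, a description over libraries of both groups). H2-Ab1 and H2-Eb1 are class II antigen presentation genes. The sum is mostly Tnnt3 in Ang II replicate 2, and with the mean of the log2 values in its place 2 of the 5 genes stayed.

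The same ranking for single members was added after the values were seen. The 5 genes most like Mylpf were Nnt, Atp2a1, Casq1, Urah and BC048679. Nnt, a mitochondrial transhydrogenase, has 2 overlapping gene models in the table, and the model in the ranking was listed at 0 in all hearts without Tec and at 38.8, 32.02 and 81.9 FPKM with Tec. The other model was at 55.8, 44.8 and 86.4 FPKM without Tec and at 27.0, 25.5 and 2.54 FPKM with Tec, so the sum of both overlapped between the groups. Mylpf has no such second model in the table. The 5 genes most like Tnnt3 were Gm38317, Itgb5, Tmem97, Zdhhc2 and Tmem62, and those most like Ckm were Tmod4, which caps actin filaments, the mitochondrial transfer RNAs mt-Tn, mt-Tt and mt-Te, and Rpl3l, a ribosomal protein of striated muscle.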

How the data were processed

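Polyadenylated RNA of 6 hearts was sequenced in paired ends. Reads were trimmed (Cutadapt) and their quality was examined (FastQC). The authors deposited FPKM of 30914 genes, rounded to 2 decimals. The submitters' processing notes name HISAT2 2.0, StringTie 1.3.0, Bowtie 0.12.2 and the build mm8 without their roles. The coordinates of the table match GENCODE M21 on GRCm38 at both ends for 90.6% of 30832 shared genes, so they are given as GRCm38. Low values showed no clear spacing of whole fragments, so no count model was used. Values of log2(FPKM + 1) of the 13089 genes with at least 0.5 FPKM in at least 3 libraries were compared with limma 3.58.1 in R 4.3.3 (lmFit, eBayes with a trend), without a block or covariate, with Benjamini-Hochberg adjustment. A gene was called at an adjusted p under 0.05 and an absolute log2 difference of at least 1. The fit was tested on simulated data. Alternatives changed the pseudocount, filter, scaling, block and variance trend, and left out each library. The members and lists were chosen with earlier results of these data known. Named genes are the members, their cardiac counterparts, called genes and up to 3 of the most abundant genes of 8 other lists, and the 5 genes most like the summed members. Other genes were named after their values were seen. Markers of 12 cell types were summed per library, and start sites were taken from RefSeq (GRCm38.p6). Tables were handled with pandas 2.3.3, and figures drawn with matplotlib 3.10.9.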

Additional observations from a re-analysis of the deposited data

How the results depend on the processing

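The count of called genes over the whole table was 21, and single libraries decided it. It was 3 without a filter on low values, and ranged from 0 to 544 when 1 library was left out, being 3, 6 and 544 when Ang II replicate 1, 2 or 3 was left out, and 0 without each Ang II + Tec replicate (limma, with 1219, 2324 and 1172 genes at an unadjusted p under 0.05). The call in the lists outside the members, 1 gene, became 2 with a pseudocount of 0.1 or 0.01, and when libraries were scaled by the median of ratios or by the sum outside the mitochondrial genome, and ranged from 0 to 7 when 1 library was left out. It was 7 without Ang II replicate 3. The 0 arose without any Ang II + Tec replicate, where Atp2a1 no longer reached the limit in 3 libraries. The number of members without overlap, 1, became 2 (Mylpf and Tnnc2) under both rescalings and ranged from 1 to 4 when 1 library was left out, the highest without Ang II replicate 3. The share of all tested genes without overlap was not computed in these settings, and smaller groups separate more readily, so nothing is read from the rise. Without Ang II replicate 3, 5619 genes of the whole table had an unadjusted p under 0.05 (limma), against 2439 in the main fit. Mylpf was among the members without overlap in each of these settings. Leaving out a library or changing the pseudocount could not alter this, since its groups were already apart with all libraries.

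Of the 21 calls 11 were higher with Tec, against 9 of 18 and 13 of 22 under these rescalings and 65 of 544 without Ang II replicate 3. The median of ratios moved the median of all tested genes from -0.17 to 0.0029 on the log2 scale. Of 117 member differences under other settings, 100 stayed within 1 SD and 6 had the opposite sign, 5 of them of Actn3. The 100 do not measure stability. The block leaves these differences unchanged by construction, and the SD is that of each gene within its groups. Tnnt3 at -0.51 without Ang II replicate 2 and at -3.04 without Ang II replicate 3 thus both counted as within it. The deviations from the group means of samples with equal replicate numbers correlated by -0.039, 0.43 and 0.38, which cannot show whether the samples were paired. With the replicate number as a block 22 genes were called. In that fit 3308 genes had an unadjusted p under 0.05 (limma), against 2439 without the block. The split by Myl7 was chosen after seeing the data. With 3 mice a group, an undetected difference is not shown to be absent.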

Other observations

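Markers of other cells that a dissected heart can hold were summed in each library. The 6 atrial markers ranged from 258 to 10323 FPKM without Tec and from 134 to 5121 FPKM with Tec. They include the hypertrophy marker Nppa, so this sum does not measure atrial tissue alone. The 5 erythroid markers lay at 248 to 1018 FPKM and 147 to 526 FPKM, the 5 adipocyte markers at 0.55 to 10.4 FPKM and 0.15 to 46.4 FPKM, and the 3 brown adipocyte markers at 12.96 to 18.8 FPKM and 13.8 to 52.6 FPKM. The 5 Purkinje cell markers stood at 3.52 to 6.45 FPKM and 2.92 to 6.69 FPKM, and the 4 Schwann cell markers at 1.48 to 2.49 FPKM and 1.13 to 3.40 FPKM. Lung epithelium and thymocyte markers stayed at or under 0.41 and 0.11 FPKM. In every one of these lists the groups overlapped.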
